A study of Mus musculus with 6 samples.

Results

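The genes described here are the replication-dependent histone genes of the mouse, chosen by their symbols as every gene of the expression table named Hist1h, Hist2h, Hist3h or Hist4h, with no use of measured values. They were 68 of the 21950 genes in the table, and all 68 are accounted for below. Of them, 6 encode the linker histone H1, and 19, 18, 12 and 13 encode the core histones H2A, H2B, H3 and H4. The RNA came from number 4 mammary gland tissue of FVB/NJ females at lactation day 2, from wildtype mice and from mice that carry MMTV-FOXC1, a Myc-tagged human FOXC1 cDNA behind the long terminal repeat promoter of the mouse mammary tumor virus. The promoter responds to hormones and was active in the luminal epithelium. The study kept the 2 lines with the highest transgene expression, and the sources used here do not give the line that was sequenced. The labels list 3 samples of each genotype at postnatal week 11 and name epithelial cells as their source, whereas the study's methods state that the RNA was taken from tissue slides, so that all cell types of the gland could contribute.

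Histones are the proteins around which DNA is wound in the nucleosome, whose core holds H2A, H2B, H3 and H4, while H1 binds the linker DNA between nucleosomes. Replication-dependent histone genes are known to be transcribed mainly in S phase, when new DNA needs new nucleosomes. Their transcripts are unusual among messenger RNAs, since most have no introns and end in a conserved stem-loop in place of a poly(A) tail. The stem-loop is bound by the protein Slbp, and the transcript is cut just downstream of it with the help of the U7 small nuclear ribonucleoprotein. Libraries made by removal of ribosomal RNA, as here, keep such transcripts, whereas selection for poly(A) tails loses most of them.

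The stem-loop is the sequence feature that the histone transcripts share, and the choice of genes did not use it. In the GENCODE M21 transcripts of the GRCm38 mouse genome, 46 of the 68 genes held 16 bases of the form GG, any 4 bases, a loop of T, any base, T and any base, and a second arm that pairs with the first over 6 base pairs. There were 8 forms, of which 1 example each is printed so that the class-specific letters can be seen, 5′ to 3′ on the transcript strand, with the stem-loop in capitals and 7 bases on either side in lower case.
Hist1h1c: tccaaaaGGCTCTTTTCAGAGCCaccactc
Hist1h2bb: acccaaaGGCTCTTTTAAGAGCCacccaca
Hist2h2ac: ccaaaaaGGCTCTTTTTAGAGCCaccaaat
Hist1h3g: ctttaaaGGCTCTTCTTAGAGCCacccatc
Hist1h4d: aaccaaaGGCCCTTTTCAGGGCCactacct
Hist1h4i: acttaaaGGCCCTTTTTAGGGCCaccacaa
Hist1h4b: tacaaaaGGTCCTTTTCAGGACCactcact
Hist1h4a: aaccaaaGGCCCTTCTCAGGGCCgcccaca
The first form was the most frequent and was found in 26 genes, namely 3 of H1, 10 of H2A, 8 of H2B and 5 of H3. The form printed for Hist1h2bb was found in 6 genes, among them 3 of H3, and those of Hist2h2ac and Hist1h3g were found in 1 gene each. The last 4 forms printed were found in H4 genes alone, in 7, 2, 2 and 1 gene. The capitals lie on chromosome 13 at chr13:23739512-23739527 (plus strand) for Hist1h1c, chr13:23747203-23747218 (plus) for Hist1h2bb, chr13:23535889-23535904 (plus) for Hist1h3g, chr13:23581950-23581965 (plus) for Hist1h4d, chr13:22040966-22040981 (minus) for Hist1h4i, chr13:23757366-23757381 (plus) for Hist1h4b and chr13:23760800-23760815 (minus) for Hist1h4a, and at chr3:96220418-96220433 (minus) for Hist2h2ac. The other 22 genes held no such letters in their annotated transcripts, which were short in 18 of them, such as the 312 bases of Hist1h4k. An annotated transcript that stops before the stem-loop cannot show it. Absence is thus a trait of the annotation and was not shown to be one of the RNA. Among the 46, the transcript ended within 100 bases of the stem-loop in 23 and ran on further in 23.

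Expression was deposited as RPKM, the reads of a gene scaled by its exonic length and the library size, in 6 columns, 1 for each sample. The steps between the values gave back whole reads for all 68 histone genes. Depth was 3492861 to 3496335 reads in the wildtype columns and 11770867 to 11775866 in the transgenic columns. Reads of the same gene differed between the 3 columns of a genotype by little more than sampling noise, with a chi-square per degree of freedom of 1.02 in wildtype and 1.053 in transgenic mice over all genes with at least 15 reads, and of 1.21 (42 genes) and 0.912 (66 genes) over the histone genes. The columns were therefore counted as 1 library for each genotype (n = 1), no difference could be set against a spread between mice, no p value is given, and 95% intervals cover counting error only. Changes are log2 of mean RPKM + 1, transgenic against wildtype, and a gene was called higher or lower by size, at an absolute log2 change over 2 where the mean reached 2 RPKM in 1 genotype or both. The transgene encodes human FOXC1, and mouse Foxc1 was at 2.53, 1.66 and 2.90 RPKM in the wildtype columns and 9.45, 9.56 and 8.21 RPKM in the transgenic columns. Its log2 change of 1.58 was under the threshold. Since every transgenic column was above every wildtype column in 83.6% of all genes that passed the RPKM filter, this is no check of the labels.

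The scale matters for every value below. The 8 milk protein genes accounted for 42.3% of reads in wildtype and 0.232% in transgenic mice, and over the 13118 genes that passed the RPKM filter the median log2 change was 1.06. Changes were therefore also computed on a relative scale, after division by the median ratio of all genes (2.35-fold, a log2 shift of 1.24, from 12677 genes), on which the median of all genes was 0.036. Levels in RPKM and shares of reads are given as deposited, with no such division.

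Histone transcripts took a larger share of the reads in the transgenic than in the wildtype library. The 68 genes held 2371 wildtype reads, or 0.0226% of the library (95% Wilson interval 0.0217% to 0.0235%), and 35263 transgenic reads, or 0.0998% (0.0988% to 0.101%). By column the share was 0.0220%, 0.0230% and 0.0228% in wildtype and 0.0995%, 0.1004% and 0.0996% in transgenic mice, so that the columns of the genotypes did not overlap. The ratio of the pooled shares was 4.41 (interval 4.23 to 4.603), and 1.87 after division by the median ratio of all genes. The H4 genes gave the most reads in both genotypes. The fewest were those of H2A in wildtype (327, beside 361 of H3) and of H2B in transgenic mice (5016, beside 5059 of H3). In both cases the interval of the share overlapped that of H3, so that the lowest class was not resolved.

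**Figure D1:**
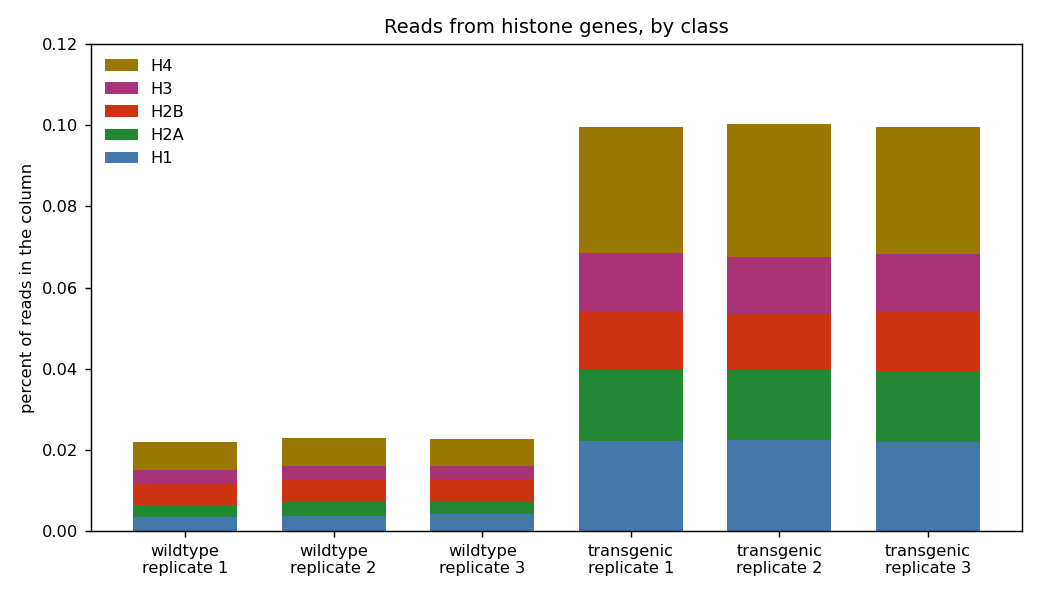
Percent of the reads of each of the 6 columns that came from histone genes, stacked by class (H1, H2A, H2B, H3, H4). The wildtype columns stand at 0.0220% to 0.0230% and the transgenic columns at 0.0995% to 0.1004%, with H4 the largest part in each.

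Gene by gene, the difference went the same way in nearly all members. Of the 68 genes, 38 were higher and 0 were lower past the size threshold, where 16.1% of all genes kept by the filter were higher and 1.23% were lower. Of the 38, 10 passed the RPKM filter through their transgenic value alone, so that only a difference could bring them in, and among the 51 genes with a wildtype mean of at least 2 RPKM 28 were higher, where 9.64% of all such genes were higher and 1.68% lower. In all, 15 genes passed through the transgenic value alone, the 10 included, and 2, Hist1h1t and Hist1h2aa, were under the filter. The median log2 change of the 68 genes was 2.13, beside 1.06 for all genes kept. The change was above 0 in 67 genes (87.7% of all genes kept) and below 0 in Hist2h2be alone. Every transgenic column was above every wildtype column in 64 histone genes (83.6% of all genes kept), below in 1 (9.67% of all genes kept), and the columns overlapped in Hist1h2bq, Hist3h2ba and Hist2h3c1.

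On the relative scale most changes were smaller than the threshold, but most stayed above 0. The median relative change of the 68 genes was 1.08, beside 0.036 for all genes kept, and it was above 0 in 63 genes, where 51.5% of all genes kept were above 0. The 5 genes below 0 were Hist1h2bc, Hist1h2bq, Hist2h2be and Hist3h2ba of H2B and Hist2h3c1 of H3. Past the threshold 7 genes were higher (4.17% of all genes kept) and 0 lower (3.66%), namely Hist1h1b, Hist1h2ad, Hist1h2ak, Hist1h3b, Hist1h3c, Hist1h3g and Hist2h3b. In all but Hist1h1b and Hist1h3c, under 50% of the 50-base transcript windows are found in no other gene, so that their reads are uncertain. Of these 7, 6 passed the filter through their transgenic value alone, and with a wildtype mean of at least 2 RPKM only Hist2h3b was called, 1 of 51 genes, where 1.24% of all such genes were higher and 5.01% lower. The counts past the threshold on this scale thus do not set the histone genes apart. The counting interval of the ratio lay wholly above the median ratio of all genes in 53 of the 66 histone genes that passed the filter (42.0% of all genes kept) and wholly below it in 4 (39.6%), namely Hist2h2be, Hist2h3c1, Hist1h2bc and Hist1h2bq. Among the 51 with a wildtype mean of at least 2 RPKM it lay above in 43 (29.7% of all such genes) and below in 3 (52.6%). These 51 genes had a median of 24.0 wildtype reads and all such genes one of 261, so that the intervals of the histone genes were mostly the wider.

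**Figure D2:**
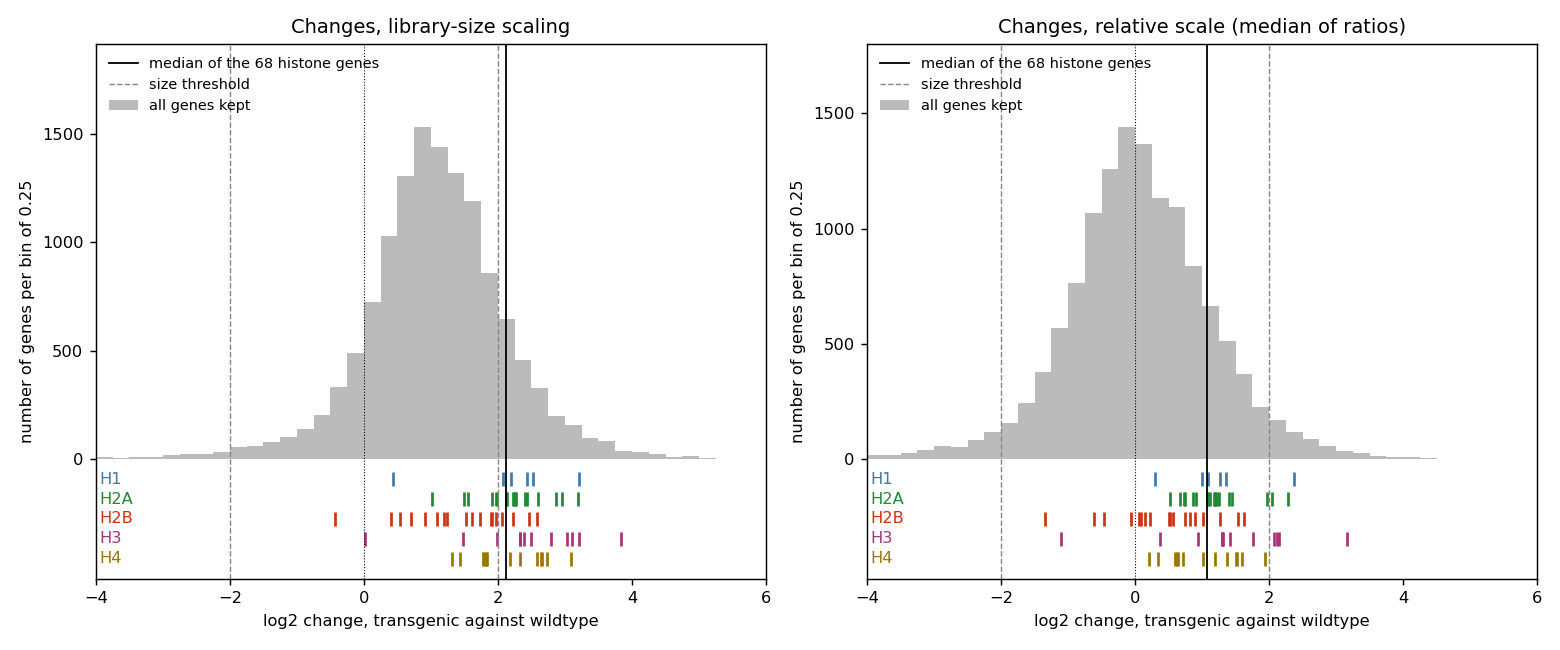
Number of genes kept by the filter (grey bars, bins of 0.25) by log2 change, with library-size scaling on the left and on the relative scale on the right, and each histone gene as a tick under the axis by class. The median of the 68 histone genes (solid line) lies at 2.13 on the left and 1.08 on the right, where the median of all genes is 1.06 and 0.036, and most ticks left of 0 on the right are H2B genes.

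The linker histones included some of the most abundant histone transcripts. Hist1h1e, which encodes a subtype found in most somatic cells, was at 19.5, 18.7 and 23.7 RPKM in wildtype and 98.2, 102 and 94.7 RPKM in transgenic columns, at log2 2.19 (relative 0.99). Hist1h1d was at 9.23, 9.23 and 11.5 RPKM against 58.4, 61.4 and 56.3 RPKM (2.44, relative 1.26). Hist1h1c was at 8.44, 9.35 and 8.99 RPKM against 55.6, 55.4 and 56.9 RPKM (2.52, relative 1.35). The columns of the genotypes were far apart in these 3 genes. Hist1h1a and Hist1h1b, the latter known mainly from dividing cells, were low in wildtype, at 13 and 5 reads over the 3 columns. Hist1h1b was at 0.770, 0.385 and 0.771 RPKM in wildtype and 14.3, 13.4 and 15.1 RPKM in transgenic columns, a log2 change of 3.22 (relative 2.37), with a log2 ratio of RPKM between 3.24 and 6.10 by the counting interval. Hist1h1a changed by 2.08 (relative 1.09), from a mean of 1.93 to 11.4 RPKM. Hist1h1t, the linker histone of the testis, had 0 wildtype and 9 transgenic reads, and no fold is given because the transgenic level is under that of 3 wildtype reads. Of the 3 H1 genes with a wildtype mean of at least 2 RPKM 3 were higher past the threshold (9.64% of all such genes). Hist1h1a and Hist1h1b passed the filter through their transgenic value alone, and Hist1h1b was the 1 H1 gene higher on the relative scale (4.17% of all genes kept). The H1 genes together had 5.77 times the wildtype share of reads (interval 5.22 to 6.40).

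Among the 19 H2A genes 13 were higher past the threshold (16.1% of all genes kept), 3 of them (Hist1h2ad, Hist1h2ak and Hist1h2an) having passed the filter through their transgenic value alone. Of the 14 with a wildtype mean of at least 2 RPKM 10 were higher (9.64% of all such genes), and 2 of the 19 were higher on the relative scale (4.17% of all genes kept). Their median change was 2.22, and the ratio of pooled reads was 5.58 (4.99 to 6.26). The highest levels were those of Hist2h2aa1, Hist2h2aa2 and Hist1h2al. Hist1h2al, which lies apart from the other genes of its chromosome, was at 4.54, 3.03 and 10.6 RPKM in wildtype and 40.0, 43.2 and 41.6 RPKM in transgenic columns (log2 change 2.59, relative 1.45). Hist2h2aa2 was at 5.96, 11.4 and 4.88 RPKM against 44.7, 40.9 and 44.7 RPKM (2.40, relative 1.24), and Hist2h2aa1 at 11.2, 6.83 and 9.77 RPKM against 38.1, 35.4 and 39.1 RPKM (1.91, relative 0.74). Both Hist2h2aa genes share all their exonic bases with other annotated genes that overlap them, so that their reads are uncertain. Hist1h2ak and Hist1h2ad were higher on both scales, at 0.728, 0.728 and 1.46 RPKM against 16.2, 15.997 and 19.02 RPKM and at 1.24, 1.85 and 0 RPKM against 15.6, 13.4 and 15.4 RPKM. These rest on 4 and 5 wildtype reads. Hist1h2aa, known from the testis, had 0 wildtype and 14 transgenic reads, and the counting interval of its log2 ratio reached down to -0.02, so that no fold is given. The lowest change of an H2A gene that passed the filter was 1.49, for Hist3h2a.

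The 18 H2B genes had the smallest median change and the smallest ratio of the classes. Of them 4, namely Hist1h2bg, Hist1h2ba, Hist1h2bk and Hist1h2bh, were higher past the threshold (16.1% of all genes kept), Hist1h2ba and Hist1h2bk through their transgenic value alone, and 0 on the relative scale (4.17% of all genes kept). Of the 12 with a wildtype mean of at least 2 RPKM 2 were higher, where 9.64% of all such genes were. The median change was 1.57 (relative 0.52), and the ratio of pooled reads was 2.65 with an interval of 2.43 to 2.90, which lay below the intervals of the other 4 classes. The share of H2B in the summed RPKM of all histone genes was 21.7% in wildtype and 14.4% in transgenic mice. Hist1h2bg was at 1.20, 2.998 and 3.60 RPKM in wildtype and 22.4, 18.7 and 20.5 RPKM in transgenic columns (log2 change 2.58, relative 1.53). Hist1h2ba, the H2B of the testis, had 3 wildtype and 117 transgenic reads, with a log2 ratio between 1.95 and 5.83. The highest H2B levels in transgenic glands were those of Hist2h2bb, at 8.26, 12.01 and 7.51 RPKM against 32.8, 32.3 and 33.9 RPKM, and Hist1h2bf, at 10.6, 8.69 and 4.97 RPKM against 33.2, 32.1 and 33.3 RPKM, both just under the threshold (1.73 and 1.90). Hist2h2bb shares all its exonic bases with other annotated genes, so that its reads are uncertain.

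At the low end of the class were Hist3h2ba and 4 H2B genes with long annotated transcripts that hold no stem-loop, the latter a grouping made after the values had been seen. Hist3h2ba, whose transcript holds a stem-loop, was at 0, 1.86 and 1.40 RPKM in wildtype and 2.77, 1.52 and 2.90 RPKM in transgenic columns (log2 change 0.70, relative -0.06), with overlapping columns and 7 wildtype reads. The RPKM of Hist1h2bc rest on 736 bases, fewer than its longest transcript. Some H2B genes are known to give, besides the stem-loop form, longer transcripts that are polyadenylated. Hist2h2be was at 3.93, 3.82 and 3.28 RPKM in wildtype and 2.37, 2.43 and 2.63 RPKM in transgenic columns, the only histone gene whose transgenic columns were all below the wildtype columns, at log2 -0.43 (relative -1.35). Its 101 wildtype and 229 transgenic reads gave a log2 ratio between -0.92 and -0.22, and none of its 50-base windows is found in another gene. Hist1h2bc was at 11.3, 9.72 and 11.7 RPKM against 16.3, 16.04 and 16.3 RPKM (log2 change 0.53, relative -0.62). It was number 5 of the 68 genes in wildtype level and number 36 in transgenic level. Hist1h2bq was at 2.84, 0.775 and 2.20 RPKM against 2.68, 2.91 and 3.11 RPKM (0.41, relative -0.46), with overlapping columns, and Hist1h2br at 1.43, 1.30 and 1.56 RPKM against 3.31, 3.92 and 3.42 RPKM (0.91, relative 0.06). Of the windows of this last pair 2.68% and 11.3% are found in no other gene, so that their reads are uncertain. Together the 4 genes with long transcripts had a ratio of 1.30 (interval 1.14 to 1.495), and the 14 other H2B genes one of 3.85 (3.42 to 4.34), which overlaps the interval of H3.

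Of the 12 H3 genes 9 were higher past the threshold (16.1% of all genes kept), 3 of them (Hist1h3b, Hist1h3c and Hist1h3g) having passed the filter through their transgenic value alone. Of the 9 with a wildtype mean of at least 2 RPKM 6 were higher (9.64% of all such genes). On the relative scale 4 of the 12 were higher (4.17% of all genes kept), the same 3 and Hist2h3b. Their median change of 2.44 was the highest of the classes, whereas their ratio of pooled reads, 4.16 (3.74 to 4.64), was above that of H2B alone. Hist2h3b was at 3.52, 1.17 and 4.69 RPKM in wildtype and 36.7, 38.1 and 36.4 RPKM in transgenic columns, or log2 3.21 (relative 2.12). All its exonic bases and all its 50-base windows are shared with other annotated genes, so that its reads are uncertain. Hist1h3b had a single wildtype read, at 0.462, 0 and 0 RPKM, and 339 transgenic reads, at 13.4, 16.7 and 16.3 RPKM. Its change of 3.84 was the largest of the 68 genes, but the counting interval of its log2 ratio ran from 4.16 to 11.96. Hist1h3c and Hist1h3g had 7 and 6 wildtype reads and changed by 3.04 and 3.11, and Hist1h3e, with 19 wildtype reads, by 2.79. The exception was Hist2h3c1, at 8.49, 11.2 and 8.81 RPKM in wildtype and 10.2, 8.68 and 9.94 RPKM in transgenic columns, a log2 change of 0.02 with overlapping columns. Its 181 wildtype reads were the most of any histone gene, its log2 ratio lay between -0.22 and 0.26, and all its 50-base windows are shared with other annotated genes. The other copy on chromosome 3, Hist2h3c2, went from a mean of 4.96 to 15.5 RPKM (1.47, relative 0.37). The H3 genes other than Hist2h3c1 were all above 0 on both scales.

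The H4 genes, which encode one of the most conserved proteins known, held the highest levels per length. Hist1h4d was first in both genotypes, at 24.0, 21.8 and 24.8 RPKM in wildtype and 143, 153 and 142 RPKM in transgenic columns (log2 change 2.58, relative 1.37). Hist1h4c was number 3 in both, at 16.7, 18.1 and 17.4 RPKM against 61.7, 69.9 and 59.3 RPKM (1.81, relative 0.62). The largest change of the class was that of Hist1h4h, at 7.26, 4.23 and 7.87 RPKM against 61.6, 65.0 and 60.3 RPKM (3.09, relative 1.93). Hist1h4k followed, from 7.34, 5.50 and 5.51 RPKM to 46.5, 46.3 and 46.3 RPKM (2.73, relative 1.59). In all, 7 of 13 were higher past the threshold (16.1% of all genes kept), each with a wildtype mean of at least 2 RPKM (9.64% of all such genes). On the relative scale 0 were higher (4.17% of all genes kept). The ratio of pooled reads was 4.62 (4.28 to 4.99). The smallest changes were those of Hist2h4 (1.32) and Hist4h4 (1.43), the gene that lies alone on chromosome 6, whose RPKM rest on models of 1630 and 2863 bases.

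**Figure D3:**
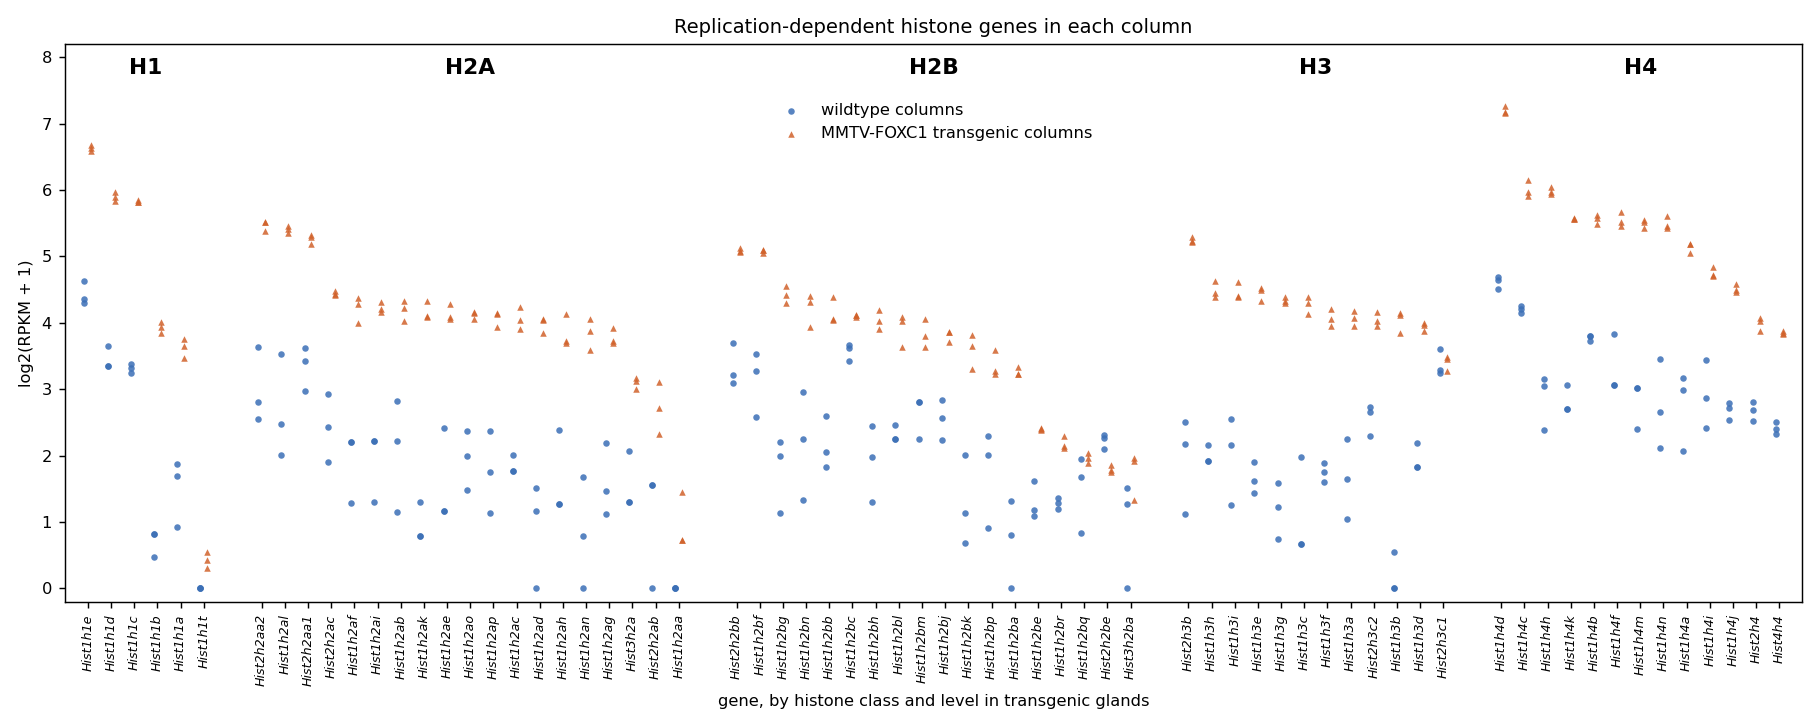
Level of each of the 68 genes as log2(RPKM + 1) in the 3 wildtype columns (blue circles) and the 3 transgenic columns (orange triangles), by class and in order of the transgenic mean. The transgenic points stand above all wildtype points in 64 genes (83.6% of all genes kept), and the exceptions are Hist2h2be, Hist1h2bq and Hist3h2ba at the right end of H2B and Hist2h3c1 at the right end of H3.

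The order of the genes by level was partly shared between the genotypes. Over the 68 genes, log2(RPKM + 1) in wildtype against transgenic mice had a Pearson r of 0.756 and a Spearman rho of 0.701. These are descriptions across genes that share gene models and sequence and are not independent. Hist1h4d, Hist1h1e and Hist1h4c were the first 3 in both genotypes. In the middle of the order neighbours could not be separated, since the median gene had 18.5 reads over the wildtype columns and 14 genes had 10 or fewer.

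The ratios of single genes spread more widely than counting error. The 95% interval of the ratio held the ratio of all histone reads, 4.41, in 37 genes, lay above it in 18 and below it in 11. Below it were 7 H2B genes (the 4 with long transcripts, Hist1h2bm, Hist1h2bj and Hist1h2be), Hist2h3c1, Hist2h3c2, Hist2h4 and Hist4h4. Above it were, among others, Hist1h1b, Hist1h1c, Hist1h1d, Hist1h3e, Hist1h4d, Hist1h4h and Hist2h3b. The exonic length behind the RPKM differed between them. The 58 genes with a length under 1000 bases had a median change of 2.22 and a ratio of pooled reads of 5.39 (5.12 to 5.69), and the 10 genes with at least 1000 bases had 1.20 and 2.80 (2.61 to 3.002). Of the 10, 1, Hist1h1c, was higher past the threshold, where 16.1% of all genes kept were. The 46 genes with a stem-loop in a transcript had a median change of 2.13 and a ratio of 4.56 (4.35 to 4.78), and the 22 without had 2.19 and 3.84 (3.51 to 4.22). These 22 were of unlike kinds, since the 18 with short transcripts had a ratio of 6.82 (5.96 to 7.83) and the 4 long H2B genes that of 1.30 given above. The split is one of annotated transcripts, and short ones may stop before a stem-loop that the RNA holds. Whether length, class or transcript end goes with the smaller ratio cannot be told apart in so few long genes.

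**Figure D4:**
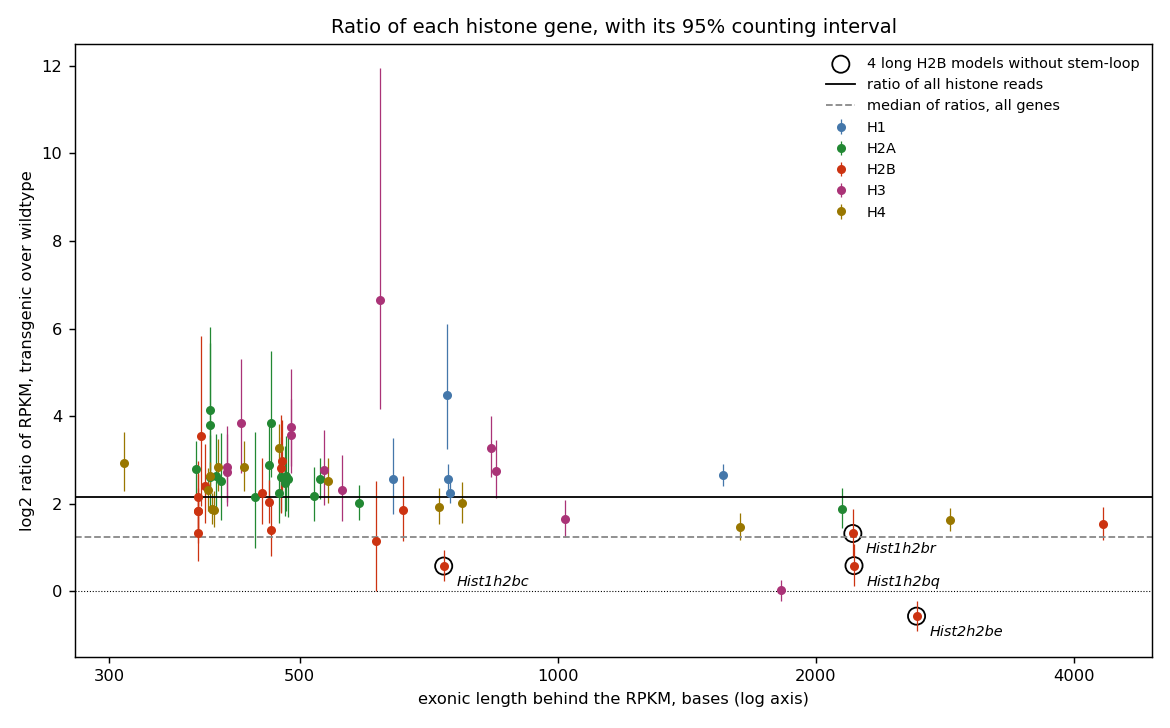
Log2 ratio of RPKM, transgenic over wildtype, of the 66 histone genes with reads in both genotypes against the exonic length behind their RPKM (log axis), with 95% counting intervals, coloured by class. Most genes under 1000 bases lie about or above the ratio of all histone reads (solid line, 4.41-fold). Hist2h3c1, Hist3h2ba (614 bases) and 3 of the 4 circled H2B genes with long annotated transcripts lie under the median ratio of all genes (dashed line), and Hist1h2br lies just above it.

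The promoters carried elements known from histone genes. RefSeq promoters (GRCm38.p6, from 250 bases before to 50 after the start) matched 62 of the 68 genes. The octamer ATTTGCAT, the site of the POU factor encoded by Pou2f1, was found on either strand in 13 promoters, 6 of 16 of H2B and 7 of 18 of H2A, and in none of H1, H3 or H4, where 1.735% of all 32851 promoters held it. The letters CCAAT were found in 53 of 62 promoters (37.408% of all), but in only 3 of 12 of H4, and TATAAA in 35 (13.616% of all), again on either strand, and motifs were allowed to overlap. The 13 promoters held 10 octamers, since 3 octamers lay between divergent H2A and H2B genes with matched promoters and were counted for both. The octamers of Hist1h2ac and Hist2h2ac also lay between divergent genes. Their H2B neighbours, Hist1h2bc and Hist2h2be, had no matched promoter and were not counted. An octamer between Hist1h2ae and Hist1h2bg and one alone at Hist2h2bb are shown, as stretches of 70 bases on the strand of the named gene with the octamer and TATAAA in capitals.
Hist1h2bg (chr13:23571331-23571400, plus strand): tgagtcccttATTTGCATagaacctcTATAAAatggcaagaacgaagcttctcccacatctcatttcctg
Hist2h2bb (chr3:96269642-96269711, plus strand): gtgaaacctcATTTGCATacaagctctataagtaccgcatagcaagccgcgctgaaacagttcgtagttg
Hist1h2ae and Hist1h2bg, on either side of the first octamer, had log2 changes of 2.44 and 2.58. The 13 genes with the octamer had a median change of 1.98, and the 49 matched genes without it 2.19. The ratio of pooled reads was 4.72 and 4.73. For CCAAT it was 4.72 in the 53 genes with the letters and 4.74 in the 9 without. For TATAAA it was 5.61 (5.25 to 6.003) in the 35 genes with the letters and 4.004 (3.77 to 4.26) in the 27 without. Classes were unevenly spread over these sets, and a part of the promoter letters in the change was not tested. A match of letters is a description and not a measured binding site.

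Among the factors that make and process histone transcripts a single gene was past the threshold. Of 22 listed genes 20 passed the filter, of which 1 was higher (16.1% of all genes kept) and 0 lower (1.23%), with a median log2 change of 0.90 and a relative median of -0.09, and on the relative scale 0 were past the threshold in either direction. Slbp, the stem-loop binding protein, went from 5.26 to 8.99 RPKM (0.67, relative -0.40). Npat, the coactivator of histone genes in S phase, went from 2.09 to 4.39 RPKM (0.80, relative -0.13), and Hinfp, a factor of H4 promoters, from 4.95 to 7.78 RPKM (0.56, relative -0.50). Of the U7 particle, Lsm10 had a log2 change of 1.15 and Lsm11 of 0.06 (relative 0.14 and -0.87), and its partners Casp8ap2 and Zfp473 of 0.98 and -0.35 (relative 0.07 and -1.13). The cleavage factors Cpsf2, Cpsf3, Sympk and Cstf2 had log2 changes of 0.88, 1.15, 1.14 and 0.03. Pou2f1 had a log2 change of 0.93 (relative -0.05) and Cdk2, the kinase that acts on Npat, of 1.43 (relative 0.34), while the lowest of the list was E2f1, from 9.88 to 7.11 RPKM (-0.42, relative -1.52). The decay factors Eri1 and Upf1 were at log2 0.30 and 1.86, Mif4gd, which acts in translation with Slbp, at 1.22, and the cap-binding genes Ncbp1 and Ncbp2 at 1.58 and 0.85. The member past the threshold was Srrt, a cofactor of the cap-binding complex, from 8.18 to 36.7 RPKM (2.04, relative 0.88).

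Histone variants, which are also made outside S phase and mostly from polyadenylated transcripts, lay near the median of all genes. Of 13 measured genes 11 passed the filter and 0 were past the threshold in either direction on either scale, with a median of 0.90 and a relative median of -0.21. Of all genes kept 16.1% were higher and 1.23% lower, and 4.17% and 3.66% on the relative scale, so that few calls could fall among 11 genes. The variants H3f3a and H3f3b, which encode H3.3, went from 32.3 to 37.7 RPKM (0.22, relative -0.98) and from 64.9 to 104 RPKM (0.68, relative -0.55). H2afz, which encodes H2A.Z, went from 35.2 to 27.8 RPKM (-0.33, relative -1.53). The linker histone of resting cells, H1f0, went from 25.2 to 45.1 RPKM (0.81, relative -0.39). The remaining members that passed had log2 changes of 0.82 for Cenpa of the centromere, 0.90 for H2afj, 1.21 for H2afv, 1.23 for H2afx, 1.30 for H2afy2, 1.45 for H2afy and 1.46 for H1fx. Their relative changes lay between -0.22 and 0.48. Of 18 histone chaperones 17 passed, with a median of 0.95 (relative -0.19). Of these, Nap1l4, which carries H2A and H2B, was higher past the threshold (from 8.15 to 38.6 RPKM, 2.11, relative 0.95), 0 were lower, and none was past it on the relative scale, beside the same shares of all genes kept. The chaperone Nasp, which carries H1 and H3, went from 7.79 to 9.04 RPKM (0.19, relative -0.91).

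Genes of S phase and proliferation lay on both sides of the median of all genes. Of 30 listed genes 24 passed the filter, with 0 past the threshold in either direction (16.1% of all genes kept were higher and 1.23% lower), and the median change was 0.93 (relative 0.02, with 12 genes above and 12 below 0). Mki67, the marker of cycling cells, went from 18.0 to 6.68 RPKM (-1.31). It was the single gene past the threshold on the relative scale (-2.42), where 3.66% of all genes kept were lower. By immunohistochemistry the study reported the other direction for its protein, Ki67, with a higher percentage of positive mammary epithelial cells in transgenic mice at lactation. The measures are unlike, protein in epithelial nuclei there and RNA of bulk tissue here. Fen1, which trims DNA fragments in replication, was at log2 -0.89 (relative -1.91). At the other end Mcm7, of the replicative helicase, went from 2.71 to 12.499 RPKM (1.86, relative 0.83) and Uhrf1, which maintains DNA methylation, from 0.632 to 4.36 RPKM (1.71, relative 0.96). The median of 1.08 of the histone genes on the relative scale thus stood beside 0.02 for S phase genes, -0.09 for processing factors, -0.21 for variants and -0.19 for chaperones.

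**Figure D5:**
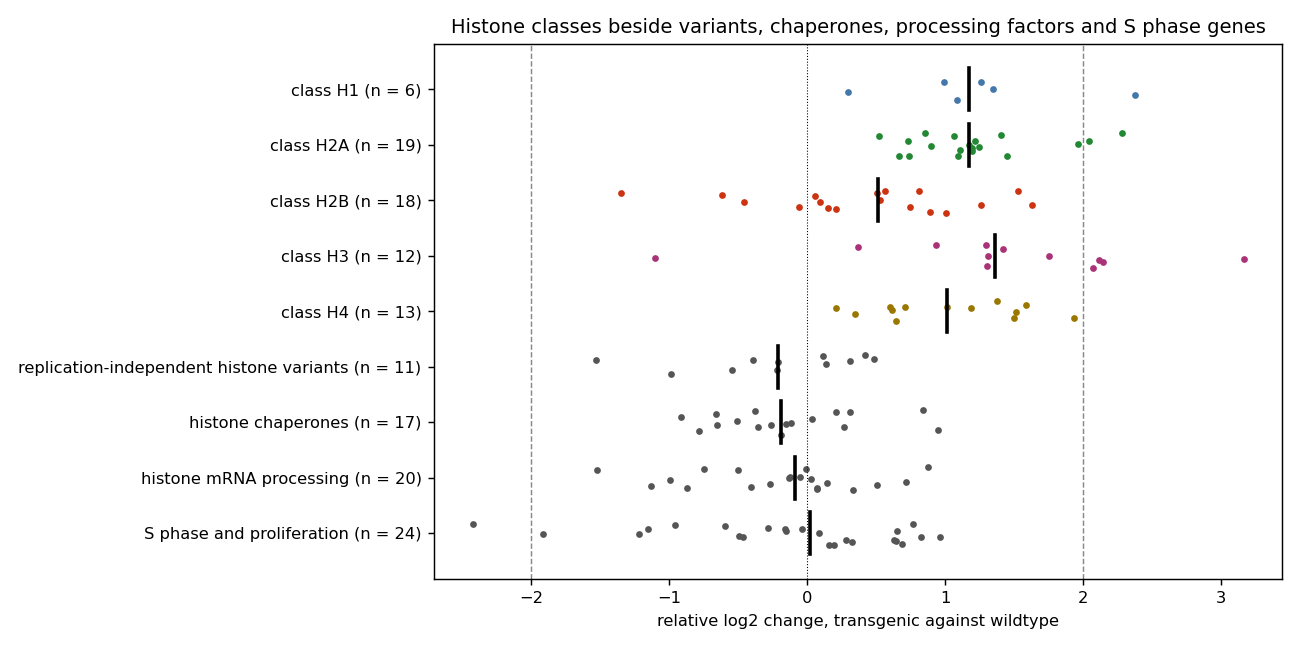
Relative log2 change of each histone gene by class and of the genes of 4 other lists that passed the filter, with medians as black bars and the size threshold as dashed lines. The medians of the histone classes lie between 0.52 (H2B) and 1.37 (H3), and those of the other lists between -0.21 and 0.02.

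Markers of other cell types also differed between the genotypes, and their counts stand beside 16.1% of all genes kept that were higher, and 4.17% on the relative scale. Of 9 B cell markers 8 were higher past the threshold (7 on the relative scale), with a summed level of 7.01 to 8.78 RPKM in the wildtype and 214 to 219 RPKM in the transgenic columns, and of 9 measured T cell markers 8 were higher (7), at 11.0 to 12.7 and 261 to 275 RPKM. Among the B cell markers Fcmr had 0 wildtype reads, and no T cell marker was at 0. Of 8 macrophage markers that passed 7 were higher (3), with sums of 24.9 to 29.5 and 199 to 203 RPKM over all 9. Of 9 adipocyte markers 9 were higher (6), at 141 to 145 and 2126 to 2148 RPKM, and of 8 fibroblast markers 7 (5), at 74.7 to 78.0 and 1252 to 1255 RPKM. Of 10 luminal epithelial markers 5 were higher (1), at 118 to 125 and 479 to 480 RPKM, of 8 basal markers 1 (0), at 137 to 142 and 443 to 451 RPKM, and of 8 endothelial markers 2 (0), at 46.7 to 50.5 and 179 to 183 RPKM. The 8 milk protein genes were all lower on both scales, at 139993 to 140525 and 1133 to 1147 RPKM. Lymph nodes were removed from glands taken for RNA analysis, but the methods do not say so of the slides. The part of these cell types in the histone difference was not tested. In such bulk tissue a different number of cells of a type and a different amount of RNA per cell cannot be told apart.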

How the data were processed

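The authors extracted RNA from tissue slides with the RecoverAll kit, prepared libraries after removal of ribosomal RNA (Kapa Hyper Prep with RiboErase), aligned single reads to GRCm38 with TopHat2 (2.0.7) and deposited RPKM made with SAMMate from Ensembl gene models. How SAMMate divided reads that fit several genes, and whether strand was used, is not given in the sources used here. The deposited table also holds the authors' mean RPKM and log2 ratios, fold values of transgenic over wildtype mice, which were not used.

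Library depths and whole reads per gene were worked out from the RPKM steps, to within 1e-05 reads, in 43 histone genes at the exonic length of GENCODE M21 and in 25 at another length, the shortest that gave whole reads. The recovery was tested on simulated data. The 3 columns of a genotype, 10482902 wildtype and 35321617 transgenic reads in all, were averaged as 1 library, since nothing says that they came from separate animals and they differed by little more than sampling noise. No paired or count model was therefore fitted. The size rule uses the fold and RPKM limits of the study's methods and a pseudocount of 1 RPKM, so that changes of low genes are understated. Genes of every biotype in the table were kept. For the relative scale the median ratio was divided evenly between the genotypes before the pseudocount was added. Ratios of reads have exact Clopper-Pearson and shares Wilson intervals (95%). Reads made by PCR without molecular identifiers are not independent molecules, so that intervals and floors cover counting error only.

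The histone genes, the other lists and the alternatives were chosen with earlier results of these data known. The text names H1 genes, the most abundant genes, those with the largest and smallest changes, genes past the threshold, all processing factors and variants that passed the filter, and up to 4 genes of each other list. Genes outside this rule were chosen after their values were seen. Coordinates are 1-based on GRCm38. Stem-loops were searched in GENCODE M21 transcripts and promoters in RefSeq sequences. Python 3.11.15, numpy 2.4.6, pandas 2.3.3, scipy 1.17.1 and matplotlib 3.10.9 were used.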

Additional observations from a re-analysis of the deposited data

How the results depend on the processing

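No paired analysis was possible because the columns of each genotype behaved as reads of 1 library and no test was run, so that the replicate numbers shared by the genotypes pair nothing. The number of histone genes higher past the threshold, 38 with library-size scaling (16.1% of all genes kept), was 7 with the median of ratios (4.17%). It was 8 with a trimmed mean of ratios and 11 with a library size without milk protein reads. With library-size scaling it was 17 among the 33 genes with at least 50% of their 50-base transcript windows in no other gene. The share over all genes was not computed for these last 3 settings, so that their counts have no background beside them. The median log2 change, 2.13, was 1.08 with the median of ratios, 1.14 with the trimmed mean and 1.45 without milk protein reads. It was 2.48 with a pseudocount of 0.1 RPKM, 2.22 where 1 mean had to reach 5 RPKM (61 genes) and 2.52 for the ratio of pooled reads with no pseudocount (66 genes). The histone share of reads was 0.0392% of wildtype reads without those of milk proteins, and 0.0140% in wildtype and 0.0617% in transgenic mice for the 33 genes. Leaving out 1 column at a time gave 37 to 40 genes higher, 0 lower, a median of 2.09 to 2.17 and shares of 0.0224% to 0.0229% and 0.0995% to 0.10002%. With the median of ratios the median change turned negative for histone mRNA processing factors (-0.087), histone variants (-0.21) and histone chaperones (-0.19), as this scaling lowers the median of all genes from 1.06 to 0.036. The direction of the histone median was the same under every alternative run, and 0 histone genes were lower past the threshold under each. The filter on the wildtype mean, the windows and the ratio without pseudocount were chosen after seeing the data. The planned count of windows that occur once in the genome was not run, as no genome sequence was used here, and the windows of transcripts replaced it. Depth limits the wildtype values most, since 14 of 68 genes had 10 or fewer reads over the 3 columns.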

Other observations

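The Hist1 genes of chromosome 13 fell into 5 blocks when neighbours over 100 kb apart were split. The block of 29 genes from Hist1h4h to Hist1h1a (chr13:23531050-23764406 of GRCm38) had a median log2 change of 2.28 and 5.33 times the wildtype share of reads (interval 5.02 to 5.67). The block of 18 genes from Hist1h2bl to Hist1h2br (chr13:21715763-21837530) had 2.25 and 5.09 (4.57 to 5.69), and the 5 genes from Hist1h2ah to Hist1h2bj had 2.12 and 4.19 (3.44 to 5.16), so that the counting intervals of the 3 blocks overlapped. The testis pair Hist1h2ba and Hist1h2aa made a block of its own with 3 wildtype and 131 transgenic reads. The 10 Hist2 genes of chromosome 3 had a median of 1.64 and a ratio of 2.63 (2.42 to 2.87), below the interval of the 55 Hist1 genes (5.24, 4.98 to 5.52). Of the Hist2 genes, Hist2h2be and Hist2h3c1, the histone genes with the lowest changes, held 101 and 181 of the 609 wildtype reads, and Hist2h3b was among those with the highest.

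Genes whose transcript sequence is shared with other annotated genes, copies or overlapping models alike, were set beside the rest. The 35 genes with under 50% of their 50-base transcript windows in no other gene had a ratio of pooled reads of 4.42 (4.13 to 4.74), and the 33 with more had 4.41 (4.18 to 4.65). The 25 genes that share exonic bases with another annotated gene had 4.13 (3.86 to 4.44), and the 43 others 4.57 (4.34 to 4.81).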
